A study of Homo sapiens with 12 samples.

Results

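The change that a single dose of 20 Gy (RT) made in common to MCF10A cells of 3 genotypes was described here as the difference between all 6 RT libraries and all 6 untreated libraries of the series, 12 of 12 in all, with genotype as a block. MCF10A is a mammary epithelial cell line from human breast tissue that grows without limit in culture but does not form tumors. Of the RT libraries 2 came from wild-type (WT), 2 from IL1R1-KO and 2 from IL1RAP-KO cells, and the untreated libraries came from the same 3 genotypes, again 2 of each, so each irradiated group stood beside its own unirradiated group. IL1R1 encodes the receptor chain that binds interleukin-1, and IL1RAP the accessory chain it signals with. Per the study's methods, KO cells were pools infected with guide RNA and Cas9 vectors and selected with puromycin, not single clones, and all cells were grown with EGF, insulin, hydrocortisone, cholera toxin and horse serum. The time between RT and RNA extraction is not given in the sources used here. The replicates of a group were called biological by the submitters.

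Ionizing radiation breaks DNA strands, and the kinases that sense the breaks stabilize p53. Through its target p21 and the repressor complexes DREAM and RB-E2F, p53 shuts down genes needed for DNA synthesis and mitosis. Cells that stay arrested remain metabolically active, enlarge and secrete, and leaked or damaged DNA can set off the type I interferon response. Much of a cell's mRNA, in contrast, encodes machines that every cell runs, such as ribosomes, proteasomes, spliceosomes and respiratory complexes, and whose messages tend to shift only modestly. A comparison of 6 libraries against 6 can resolve smaller shifts than one of 2 against 2.

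Values are scaled TPM (transcript abundance relative to all transcripts of a library and corrected for transcript length, then rescaled between libraries), and changes are log2 differences, RT minus untreated, of scaled TPM plus 1, with the standard error (SE) and the Benjamini-Hochberg adjusted p of limma. The added 1 understates the change of genes with low levels. Genes with an adjusted p under 0.05, whatever their fold, are those called changed. The mRNA of IL1RAP was lower in untreated libraries of IL1RAP-KO cells (4.39 and 4.95 scaled TPM) than in untreated WT cells (17.96 and 20.7). IL1R1 mRNA was at a like level in cells labelled IL1R1-KO (10.99 and 7.79, against 10.6 and 9.44 in WT cells), so these are called cells labelled IL1R1-KO. That wording refers to the mRNA alone, whose level does not show whether the protein was lost. By Western blot the paper reports depletion of IL1RAP protein in cells with its IL1RAP guides. It found no suitable antibody for IL1R1, and checked the knockouts of either gene by the response to added interleukin-1. It reports a blunted response in KO cells of either gene and takes both knockouts as established. All 18 basal mammary markers looked up were present in every library, at 21.2 TPM or more. Their sum was lower after RT, at 4020 to 6821 TPM, against 9407 to 10096 TPM in untreated cells, without overlap. Of 14 leukocyte markers 9 stayed under 1 TPM in all 12 libraries, with TYROBP and NKG7 at 0. CD14, LCP1, CD68 and CSF1R were above 1 TPM in every library. CD14 stood at 19.3 to 70.6 TPM after RT, against 5.91 to 21.7 TPM in untreated cells. LCP1 stood at 4.39 to 8.11 TPM after RT, against 18.2 to 28.0 TPM in untreated cells. The 14 summed to 32.4 to 85.4 TPM after RT, against 36.96 to 54.7 TPM in untreated cells. Of 18 luminal markers 6 stayed under 1 TPM in all 12 libraries, PGR among them, but KRT7, KRT18, KRT8, MUC1 and EPCAM were present, and the 18 summed to 651 to 1218 TPM after RT, against 1481 to 2478 TPM in untreated cells. Of 14 fibroblast markers 7 stayed under 1 TPM, with COL1A2 at 0 but S100A4 and DCN present, and their sum was 286 to 512 TPM after RT, against 293 to 335 TPM in untreated cells. Of 11 endothelial markers 6 stayed under 1 TPM, with sums of 8.18 to 12.5 TPM after RT, against 5.12 to 7.36 TPM in untreated cells, and 3 of the 4 tested were higher. The part of other cell types or states in the changes below was not tested. RNA of mitochondrial DNA took 36.9% to 57.0% of the TPM in RT libraries, with a median of 40.9%, and 18.3% to 21.1%, with a median of 20.0%, in untreated libraries (exact permutation within genotype, two-sided p = 0.0093, the smallest these 12 libraries can give; higher in 6 of 6 RT libraries). Nuclear protein-coding genes took 40.7% to 61.0% after RT, against 76.9% to 79.8% in untreated cells. IL1RAP-KO RT replicate 2 held the highest mitochondrial share. The read depth behind the TPM is unknown, so no counting error is given.

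Irradiation moved most of the expressed transcriptome, and most of the changed genes changed by less than 2-fold. Of 15303 genes tested, 4880 were higher after RT (31.9%) and 4973 were lower (32.5%). Over 2-fold, 1019 were higher (6.66%) and 1073 lower (7.01%). Between 1.5- and 2-fold, 1693 were higher (11.1%) and 1583 lower (10.3%), and under 1.5-fold 2168 were higher (14.2%) and 2317 lower (15.1%). Changes under 2-fold thus made up 7761 of the 9853 calls, or 78.8%. The smallest called change was 0.124 log2 units, beside a median SE of 0.112. Over all genes the median change was 0.02 and the middle of the distribution ran from -0.42 to 0.45 (interquartile range). The 6 RT libraries did not overlap the 6 untreated ones in 2798 genes that were higher (18.3%) and 3481 that were lower (22.7%). The first principal component held 64.2% of the variance and put all RT libraries at 37.6 to 53.7 and all untreated libraries at -48.4 to -44.2.

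**Figure D1:**
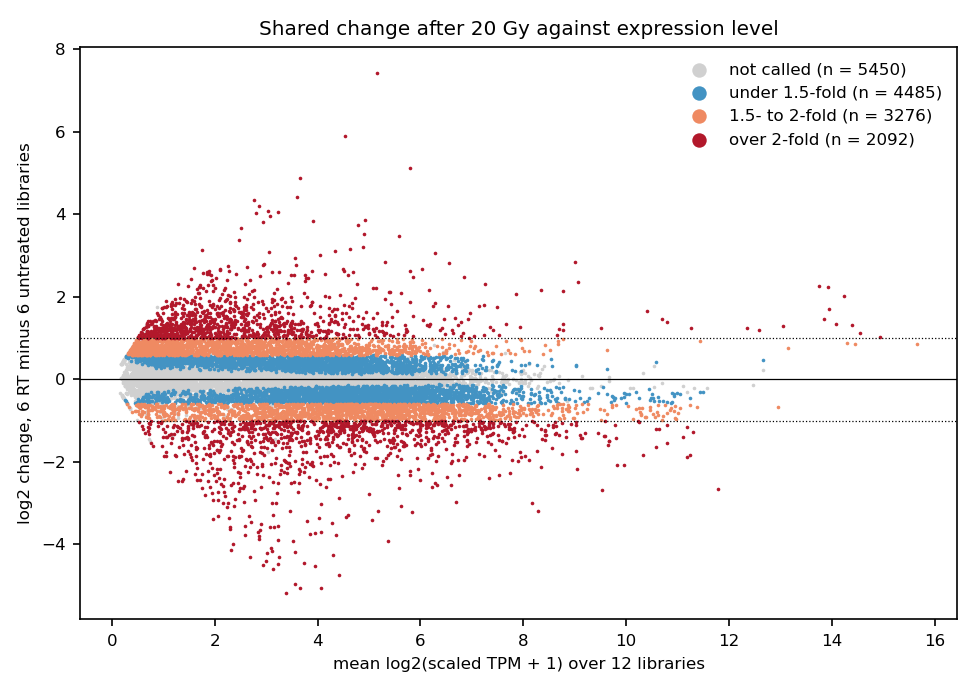
Each point is a gene, with its mean log2(scaled TPM + 1) over 12 libraries on the x axis and its log2 change (6 RT minus 6 untreated libraries) on the y axis, coloured by whether and how far it changed; dotted lines mark 2-fold. The 7761 genes called under 2-fold fill the band inside the dotted lines, and the abundant genes on the right lie mostly below 0 apart from a group of mitochondrial transcripts at the far right.

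Most called genes had the same sign in all 3 genotypes, which their choice by the mean of these differences made likely. Of all 15303 genes tested, called or not, 11140 had the same sign in the 3 genotypes. Of the 4880 genes called higher, 4725 had a positive difference in every genotype, and in 3500 both RT libraries lay above both untreated libraries in each genotype. Of the 4973 called lower, 4859 had a negative difference in all 3 genotypes, and 3952 separated in each. Among the changes under 2-fold these numbers were 3710 and 2546 of 3861 for the higher genes and 3789 and 2903 of 3900 for the lower genes. The effect of RT differed between genotypes for 251 of 15303 genes (1.64%; limma moderated F test of the interaction), of which 172 were also called for the shared effect. A gene that misses that test is not shown to respond alike in the 3 genotypes, and 2726 genes had an unadjusted p under 0.05.

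Larger changes withstood other choices more often than smaller ones, in part by construction. Another scaling shifts the changes of all genes by a like amount, which takes the call from small changes first. Under each of 4 scalings of the libraries (that of the report and 3 others), 99.9% of the higher and 99.6% of the lower calls over 2-fold were kept in the same direction, and 95.5% and 92.7% of those between 1.5- and 2-fold. Under 1.5-fold only 29.4% of the higher and 12% of the lower calls were kept. Leaving out each genotype in turn kept 95.3% and 98.6% of the higher and lower calls over 2-fold, 73.8% and 92.7% between 1.5- and 2-fold, and 44.7% and 53.3% under 1.5-fold. In all, 6087 of 9853 calls were kept under every scaling. Changes under 1.5-fold are therefore described below mainly as members of larger groups. The scaling also set the balance of directions: 49.5% of calls were higher as reported, 35.3% with TPM as deposited, 51.9% with median-of-ratios scaling and 72% with libraries scaled to nuclear protein-coding genes, where the median of all genes moved by -0.16, 0.02 and 0.27 log2 units. All changes below are relative to the trimmed mean of all tested genes, and no measure of the RNA content of a cell was at hand.

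**Figure D2:**
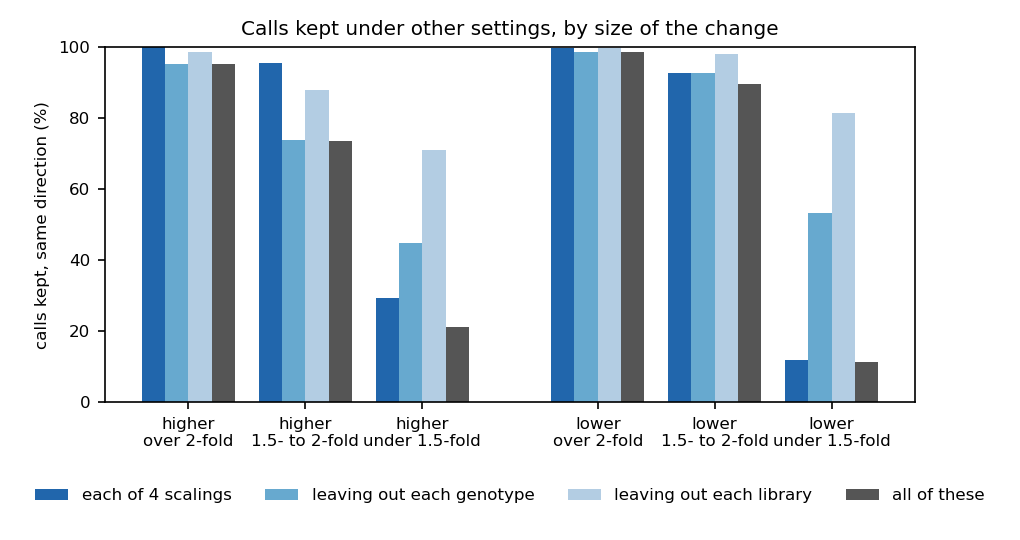
Bars give the percentage of calls kept in the same direction (y axis) for genes higher (left) and lower (right) after RT in each size class (x axis), under each of 4 scalings, with each genotype left out, with each library left out, and under all of these. Calls over 2-fold stay at 95.3% or more under all of these, and calls under 1.5-fold drop to 21.3% (higher) and 11.4% (lower).

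The largest falls were in genes of mitosis. All 68 tested members of the mitosis list were lower after RT, with a median change of -3.01, beside 0.02 for all genes. Their summed level was 345 to 433 scaled TPM in the 6 RT libraries, against 2629 to 2769 in the 6 untreated libraries, without overlap. In bulk libraries, fewer cells in a phase of the cycle and less of these mRNAs per cell cannot be told apart. UBE2C, the ubiquitin-conjugating enzyme of the anaphase-promoting complex, had the largest fall of the genes named here. It stood at 0.246, 0.472 and 1.84 scaled TPM after RT, against 58.2, 60.9 and 66.6 in untreated cells (here and below the lowest, median and highest of 6 libraries), a change of -5.18 ± 0.13 (adjusted p = 7.9e-11, limma). CDC20, which activates the same complex, stood at 0.390, 1.08 and 2.63 scaled TPM after RT, against 67.96, 70.9 and 78.2 in untreated cells, a change of -5.06 ± 0.20. PLK1, a kinase of mitotic entry, stood at 0.471, 1.39 and 1.46 scaled TPM after RT, against 55.6, 64.3 and 76.03 in untreated cells (-4.95 ± 0.13). In each of these genes every RT library lay far below every untreated library. CCNB2 (a B-type cyclin, -4.45), BIRC5 (survivin, -4.50), NEK2 (a centrosomal kinase, -4.49), ASPM (a spindle pole protein, -4.20), NUF2 (a kinetochore subunit, -3.71) and TPX2 (a spindle assembly factor, -2.88) fell as well. PCLAF, a PCNA-binding factor, PRR11 and the long noncoding transcript AC087632.2 were also among the 10 lowest genes, with changes of -5.06, -4.59 and -4.73.

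Promoters of the mitosis genes often held a short element known as the CHR (cell cycle genes homology region), through which DREAM is known to repress G2/M genes. Windows around it are shown for 4 genes of this list because they carry the same letters close to the gene start. They were read from RefSeq promoter sequences on GRCh38.p14, 5′ to 3′ on the gene's strand, as CDC20 at chr1:43358901-43358936 (plus strand), PLK1 at chr16:23678845-23678880 (plus strand), CCNB2 at chr15:59105102-59105137 (plus strand) and MKI67 at chr10:128126432-128126467 (minus strand). Capitals mark the CHR letters.
CDC20: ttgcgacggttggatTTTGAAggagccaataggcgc
PLK1: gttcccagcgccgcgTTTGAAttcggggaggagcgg
CCNB2: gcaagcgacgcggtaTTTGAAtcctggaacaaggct
MKI67: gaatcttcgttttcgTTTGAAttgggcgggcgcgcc
The letters TTTGAA, searched on both strands in the 300 bases from 250 before to 50 after the start, were found in 41 of 60 mitosis promoters (68.3%), beside 9.84% of the 10381 promoters of tested genes and 15.4% of all 27305 promoters. They began 29 bases before the start in PLK1, CCNB2 and MKI67 and 65 before it in CDC20. Among genes lower by more than 2-fold 18% held them, and among those lower by 1.5- to 2-fold 11.2%. The CCAAT box, searched as CCAAT, was in 71.7% of the mitosis promoters, beside 37.1% of the promoters of tested genes. Of 45 DNA replication promoters 1 held TTTGAA. A match is a description of the sequence and does not show that a factor binds there.

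DNA replication genes fell less steeply, and some of them by less than 2-fold. Of 52 tested, 50 were lower and none was higher (limma; 0 also by the unadjusted p), with a median of -1.57. The sum of their levels was 664 to 773 scaled TPM in the 6 RT libraries, against 1712 to 1753 in the 6 untreated libraries. MCM6, a subunit of the replicative helicase, stood at 4.85, 4.99 and 5.68 scaled TPM after RT, against 26.9, 27.7 and 30.2 in untreated cells, a change of -2.25 ± 0.06 (adjusted p = 1.6e-10, limma). TK1, thymidine kinase, changed by -3.64, UHRF1, which keeps DNA methylation through replication, by -2.92 and RFC3, a clamp loader subunit, by -2.21. PCNA, the sliding clamp itself, is also a direct p53 target, and fell by a smaller amount. It stood at 77.05, 81.05 and 86.4 scaled TPM after RT, against 141, 145 and 150.3 in untreated cells, a change of -0.82 ± 0.05, or -0.76 in WT, -0.84 in IL1R1-KO-labelled and -0.85 in IL1RAP-KO cells. The 2 sets of 6 PCNA values did not overlap. RFC1 and ORC3 were not called (-0.18 and -0.16, adjusted p = 0.18 and 0.086, limma; RFC1 called at -0.30 without IL1RAP-KO RT replicate 2; ORC3 called at -0.22 without IL1RAP-KO RT replicate 2). MCMBP, which handles MCM complexes, stood at 35.4, 36.2 and 38.1 scaled TPM after RT, against 65.6, 66.1 and 70.6 in untreated cells (-0.85 ± 0.05). PRPS2, which makes the precursor of nucleotides, stood at 20.2, 21.99 and 24.7 scaled TPM after RT, against 41.96, 44.5 and 46.7 in untreated cells (-0.97 ± 0.05).

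Repair and checkpoint genes were mostly lower too, at shares to be read beside the 32.5% lower of all genes tested. In the list of homologous recombination and the Fanconi anaemia pathway 25 of 32 were lower and 2 higher (median -0.82), among them the nuclease EXO1 (-3.32), RAD51AP1 (-2.13) and FANCI (-2.07), whereas RAD50, which senses broken ends, was not called (-0.10, adjusted p = 0.29, limma). The end-joining genes fell by less. XRCC6, the Ku70 subunit, stood at 144, 170.3 and 199 scaled TPM after RT, against 313, 329.6 and 337 in untreated cells (-0.92 ± 0.07). PRKDC, the kinase that Ku recruits, stood at 47.2, 53.7 and 62.7 scaled TPM after RT, against 89.00, 98.2 and 106 in untreated cells (-0.85 ± 0.06). In both genes the RT libraries lay wholly below the untreated ones. Of 16 end-joining genes 9 were lower and 3 higher (median -0.36), and of 20 damage signalling genes 12 and 2 (median -0.39). CHEK1, the kinase of the replication checkpoint, changed by -1.59 ± 0.14 (adjusted p = 1e-06, limma). WEE1 was not called (-0.05, adjusted p = 0.79, limma). Among G1 cyclins, inhibitors and the RB family 14 of 24 were lower, including CDK4 (-1.35) and CDK2 (-1.51), and 5 were higher, while RB1 stood at 34.4, 36.4 and 40.4 scaled TPM after RT, against 36.6, 37.3 and 39.2 in untreated cells and was not called (-0.03, adjusted p = 0.64, limma).

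Chromatin proteins of the proliferating nucleus and sterol synthesis genes fell together with the cell cycle genes. Of 18 lamina and HMG genes 17 were lower (median -1.32). LMNB1, the lamin whose loss is a known mark of senescence, stood at 1.94, 3.19 and 5.19 scaled TPM after RT, against 52.00, 55.1 and 57.9 in untreated cells (-3.73 ± 0.12), and HMGB2, a chromatin protein, at 22.5, 29.1 and 38.1 scaled TPM after RT, against 163, 186 and 197 in untreated cells (-2.61 ± 0.09). All 24 tested sterol genes were lower (median -1.67), with a summed level of 826 to 987 scaled TPM in the 6 RT libraries, against 2395 to 2947 in the 6 untreated libraries. INSIG1, the sterol-regulated anchor of SREBP processing, stood at 5.46, 6.46 and 8.60 scaled TPM after RT, against 70.8, 74.2 and 79.1 in untreated cells, a change of -3.29 ± 0.11 (adjusted p = 3.6e-10, limma). The synthesis enzymes SQLE, DHCR7 and FDFT1 changed by -2.36, -2.62 and -1.86. CCAAT was in 15 of 18 sterol promoters (83.3%), and the letters ATCAC and CCAC of a sterol response element, with 1 base of any kind between them, were in 1 of 18 (5.56%), beside 0.0963% of the promoters of tested genes and 0.154% of all promoters.

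At the other end stood interferon-induced genes. Of 46 tested, 43 were higher, beside 31.9% of all genes tested, and 1 lower, with a median change of 1.77, and in single RT libraries the median member was 1.16 to 2.09 log2 units above the untreated mean of its genotype. IFI6, an interferon-induced mitochondrial membrane protein, stood at 149, 516 and 925 scaled TPM after RT, against 0.885, 1.90 and 2.17 in untreated cells, a change of 7.43 ± 0.30 (adjusted p = 1.8e-09, limma). ISG15, a ubiquitin-like modifier, stood at 19.99, 58.1 and 119 scaled TPM after RT, against 0.940, 1.72 and 2.35 in untreated cells (4.42 ± 0.31). OAS2, which senses double-stranded RNA, stood at 16.8, 35.8 and 48.7 scaled TPM after RT, against 0.495, 0.818 and 1.86 in untreated cells (4.08 ± 0.16). These RT values spread over several-fold, with WT RT replicate 1 lowest for each of IFI6 and ISG15, but no RT value reached the untreated range. IFIT1 (4.03), IFI27 (5.90), OAS1 (2.62) and DDX58, the RNA sensor RIG-I (2.53), rose as well. IFITM3, the most abundant member not called, stood at 1111, 1401 and 1572 scaled TPM after RT, against 1048, 1215 and 1345 in untreated cells (0.16, adjusted p = 0.14, limma; called at 0.21 without IL1RAP-KO RT replicate 2). Windows are shown for 4 of the genes because each holds 2 GAAA blocks with 2 bases of any kind between them, the core of the element that ISGF3 is known to bind. On GRCh38.p14 they are IFI6 at chr1:27672261-27672300 (minus strand), IFI27 at chr14:94110626-94110665 (plus strand), ISG15 at chr1:1013369-1013408 (plus strand) and IFIT1 at chr10:89392505-89392544 (plus strand), with capitals for these letters or their reverse complement.
IFI6: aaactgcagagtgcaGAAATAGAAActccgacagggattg
IFI27: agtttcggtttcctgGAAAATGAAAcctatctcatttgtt
ISG15: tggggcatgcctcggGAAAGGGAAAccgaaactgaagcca
IFIT1: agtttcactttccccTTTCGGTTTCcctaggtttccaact
The 2 blocks were found on either strand in 24 of 37 interferon promoters (64.9%), in 2.89% of the promoters of tested genes and in 3.65% of all promoters. Of the genes higher by more than 2-fold 6.77% held them.

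Genes of MHC class I presentation were divided, with smaller changes. B2M, the light chain of class I molecules, stood at 2439, 2900.0 and 3462 scaled TPM after RT, against 1035, 1089 and 1155 in untreated cells (1.40 ± 0.09). HLA-B stood at 176, 298 and 385 scaled TPM after RT, against 39.9, 43.4 and 62.3 in untreated cells (2.49 ± 0.13), although alleles and related loci share reads. TAP1, a peptide transporter, changed by 1.18. RT and untreated values did not overlap in these genes, whereas PSME1 and PSME2, the proteasome activator, were not called (0.12 and -0.08, adjusted p = 0.11 and 0.46, limma; PSME1 called at 0.15 without IL1RAP-KO RT replicate 2). Of 20 genes on this list 11 were higher and 5 lower (median 0.46), beside 31.9% and 32.5% of all genes tested. The number lower was 2 without IL1RAP-KO replicate 1, IL1R1-KO RT replicate 2 or IL1RAP-KO RT replicate 1, and it was 3 when IL1R1-KO replicate 2, IL1RAP-KO replicate 2 or IL1R1-KO RT replicate 1 was left out.

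Known p53 targets were mostly higher, beside 31.9% higher and 32.5% lower of all genes tested. More of their calls were below than above 2-fold, but so were 78.8% of the calls of all genes. Of 39 p53 targets tested, 25 were higher, 9 of them by more than 2-fold and 16 by less, and 5 were lower (median 0.49). RRM2B, a subunit of ribonucleotide reductase that serves repair, stood at 173, 189.6 and 197 scaled TPM after RT, against 87.2, 88.9 and 97.8 in untreated cells (1.04 ± 0.05, or 1.11 in WT, 1.06 in IL1R1-KO-labelled and 0.96 in IL1RAP-KO cells). SPATA18, a factor of mitochondrial quality control, stood at 40.4, 49.1 and 57.03 scaled TPM after RT, against 15.1, 15.9 and 19.8 in untreated cells (1.48 ± 0.06). PMAIP1, the BH3-only protein NOXA, stood at 23.4, 25.01 and 29.9 scaled TPM after RT, against 7.04, 7.48 and 9.03 in untreated cells (1.61 ± 0.08). In these 3 genes the values were tight within each set of 6 and did not overlap. PERP, a membrane protein of desmosomes, stood at 489.6, 573 and 676 scaled TPM after RT, against 279, 295 and 316 in untreated cells (0.92 ± 0.06), and EDA2R, the ectodysplasin A2 receptor, at 21.01, 24.3 and 25.4 scaled TPM after RT, against 10.98, 11.5 and 13.2 in untreated cells (0.96 ± 0.06). BAX and TP53I3 were not called (0.03 and 0.27, adjusted p = 0.79 and 0.058, limma; TP53I3 called at 0.32 without IL1RAP-KO replicate 2; TP53I3 called at 0.37 without IL1RAP-KO RT replicate 2). Of the BCL2 family, MCL1, which protects from apoptosis, fell (-0.65 ± 0.07), whereas BCL2L1 (BCL-XL, 0.75 ± 0.13) and BCL2L2 (BCL-W, 0.69 ± 0.10), which do the same, rose. BID, which promotes apoptosis, fell to 10.4, 13.4 and 19.5 scaled TPM after RT, against 25.9, 28.2 and 35.4 in untreated cells (-1.01 ± 0.08).

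**Figure D3:**
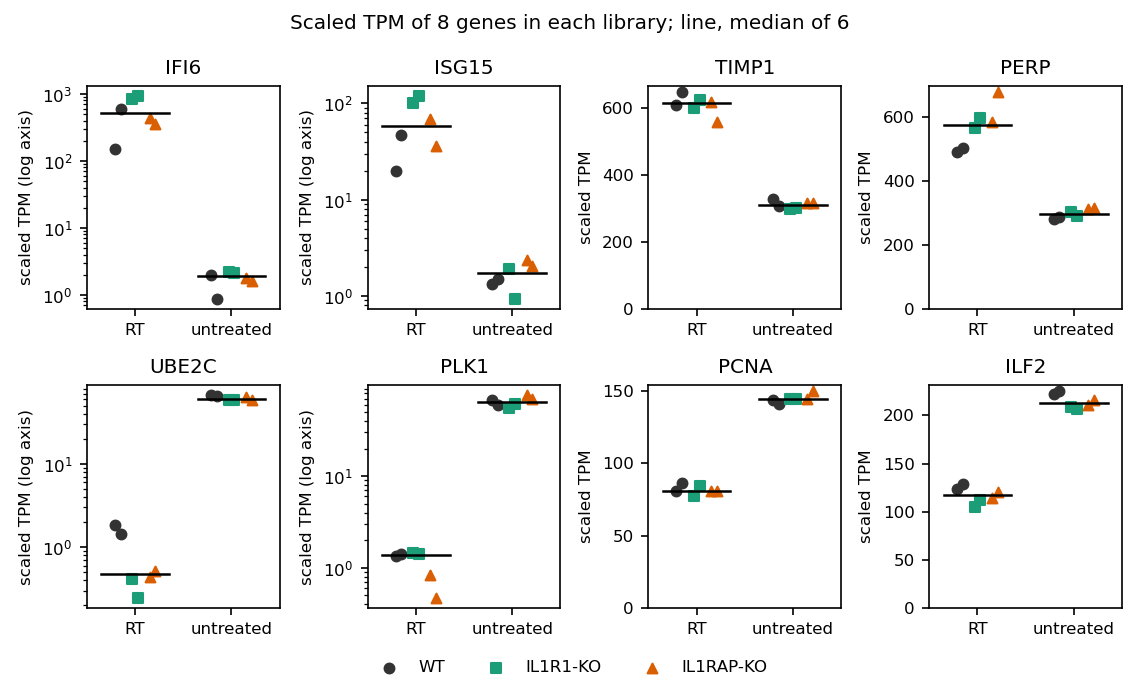
Scaled TPM (y axis, logarithmic for IFI6, ISG15, UBE2C and PLK1) of 8 genes in the 6 RT (left) and 6 untreated (right) libraries, with a symbol for each genotype and a line at the median of 6. TIMP1 and PERP are higher after RT, PCNA and ILF2 are lower, all by less than 2-fold, and none of the 8 genes has overlapping RT and untreated values.

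Of 59 replication-dependent histone genes listed 31 were tested. Of these, 19 were higher and 3 lower (median 0.90), in the same libraries in which replication genes were lower. Among all genes tested 31.9% were higher and 32.5% lower. A gene low in untreated cells passes the filter of 1 TPM in 2 libraries only if its RT values are high. The count of histone genes higher may therefore rest in part on the filter. H2AC6 stood at 92.2, 183 and 235 scaled TPM after RT, against 20.2, 25.3 and 35.1 in untreated cells (2.68 ± 0.11), H2BC21 at 17.1, 33.6 and 43.6 scaled TPM after RT, against 2.72, 3.58 and 4.31 in untreated cells (2.78 ± 0.13) and H4C8 at 15.05, 54.05 and 61.1 scaled TPM after RT, against 0.772, 1.34 and 2.15 in untreated cells (4.05 ± 0.29). Histone genes of a class are near-identical, so reads may have been divided between them. Their mRNAs largely lack poly(A) tails, and the libraries were made from total RNA, so both tailed and untailed forms could be counted.

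Against these steep changes stood a broad, shallow fall of the genes for the machines that make, fold and destroy proteins. Of 33 proteasome subunits 31 were lower, beside 32.5% of all genes tested, and none was higher (limma; 0 also by the unadjusted p), with a median of -0.65, and only 4 of these falls exceeded 2-fold. Their summed level was 3044 to 3382 scaled TPM in the 6 RT libraries, against 4857 to 5188 in the 6 untreated libraries. PSMA1, a subunit of the outer ring, stood at 136, 149 and 161 scaled TPM after RT, against 266, 274 and 297 in untreated cells (-0.88 ± 0.05, adjusted p = 5.1e-08, limma). PSMA3, of the same ring, stood at 110.4, 116 and 117 scaled TPM after RT, against 192, 207 and 231 in untreated cells (-0.85 ± 0.05). The values of each set lay within a narrow range and the sets did not overlap. PSMC5, an ATPase of the cap, stood at 98.4, 103 and 112 scaled TPM after RT, against 101, 107 and 109.8 in untreated cells and was not called (-0.04, adjusted p = 0.46, limma). Of 14 subunits of the chaperonin CCT and of prefoldin, which fold actin and tubulin, 12 were lower (median -0.84). TCP1 stood at 171, 188 and 212 scaled TPM after RT, against 328, 337 and 346 in untreated cells (-0.81 ± 0.05), while PFDN5 and PFDN2 were not called (0.09 and -0.06, adjusted p = 0.23 and 0.58, limma).

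Most genes of the translation machinery were lower, at shares to be read beside the 32.5% lower of all genes tested. Of protein-coding genes with a mean over 6 log2 units 64.3% were lower, near the share of aminoacyl-tRNA synthetases below. Ribosome biogenesis and RNA polymerase I genes were lower in 61 of 64 cases (median -0.76), with a summed level of 3703 to 5120.0 scaled TPM in the 6 RT libraries, against 10330.2 to 10700.1 in the 6 untreated libraries. NPM1, the nucleolar chaperone nucleophosmin, stood at 937, 1207 and 1549 scaled TPM after RT, against 4369, 4473 and 4578 in untreated cells (-1.89 ± 0.10), and NCL, nucleolin, at 269, 352 and 413 scaled TPM after RT, against 889, 916 and 973 in untreated cells (-1.43 ± 0.08). RSL24D1, a factor of large subunit assembly, stood at 115, 123 and 136 scaled TPM after RT, against 233, 243 and 261 in untreated cells (-0.98 ± 0.05). Each of these nucleolar genes separated the RT from the untreated libraries. Of 35 initiation factors 29 were lower and 2 higher (median -0.70). The pair EIF4A1 and EIF4A2, closely related helicases of the cap-binding complex, moved apart. EIF4A1 stood at 386, 422 and 677 scaled TPM after RT, against 1133, 1241 and 1273 in untreated cells (-1.38 ± 0.10). EIF4A2 stood at 508, 551 and 585 scaled TPM after RT, against 288, 302 and 317 in untreated cells (0.86 ± 0.05). EIF4A1 was thus lower and EIF4A2 higher in all 6 RT libraries. Cytosolic aminoacyl-tRNA synthetases were lower in 15 of 23 cases and higher in 4 (median -0.42; 2 higher without IL1R1-KO replicate 1 or IL1RAP-KO replicate 1), with KARS1 at -1.05 ± 0.06 and TARS1 not called (-0.07, adjusted p = 0.57, limma).

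Cytosolic ribosomal protein genes, with the largest summed level of the nuclear lists, were lower in 69 of 80 cases and higher in none (2 by limma's unadjusted p under 0.05; median -0.57), 60 of them by less than 2-fold. Together they held 85018 to 143316 scaled TPM in the 6 RT libraries, against 151454 to 155959 in the 6 untreated libraries, without overlap. RPL15 stood at 939, 1074 and 1359 scaled TPM after RT, against 1936, 1965 and 2036 in untreated cells (-0.85 ± 0.08, adjusted p = 1.4e-06, limma). RPSA, also known as the laminin receptor, stood at 796, 939 and 1215 scaled TPM after RT, against 1818, 1827 and 1859.5 in untreated cells (-0.92 ± 0.09). RPS27 and RPS18 were not called (0.22 and -0.22, adjusted p = 0.065 and 0.11, limma; RPS27 called at 0.26 without IL1R1-KO replicate 1; RPS27 called at 0.27 without IL1R1-KO RT replicate 1; RPS18 called at -0.30 without WT RT replicate 1). These genes have many processed pseudogenes, so reads shared with a copy may have been lost in the counting. The size of the fall was less even than for the proteasome: the median member lay at -0.89 to -0.10 log2 units in the 6 RT libraries, smallest in the 2 WT RT libraries, and 6 of 80 members passed the interaction test, among them RPS26 (-0.73 in WT, -1.37 in IL1R1-KO-labelled and -1.24 in IL1RAP-KO cells).

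Most messages for RNA processing and transport were also lower, at shares to be read beside the 32.5% lower of all genes tested. Of protein-coding genes with a mean over 6 log2 units 64.3% were lower, near the share of RNA polymerase II subunits below. Of 52 spliceosome components 46 were lower and none higher (limma; 0 also by the unadjusted p; median -0.69), with SNRPD1, a ring protein of the small nuclear ribonucleoproteins, at 38.7, 50.9 and 57.04 scaled TPM after RT, against 119, 131 and 138 in untreated cells (-1.40 ± 0.06). SRSF3, a splicing regulator, changed by -1.97 ± 0.10, whereas SRSF5 and SRSF11 were not called (-0.09 and -0.12, adjusted p = 0.22 and 0.098, limma; SRSF11 called at -0.17 without IL1RAP-KO RT replicate 2). The RNA-binding proteins ILF2 and HNRNPAB belonged to the 15 genes chosen for the smallest adjusted p among falls under 2-fold. ILF2 stood at 105, 117 and 128 scaled TPM after RT, against 206, 213 and 225 in untreated cells (-0.87 ± 0.04, adjusted p = 1.3e-08, limma), and HNRNPAB at 171, 182 and 191 scaled TPM after RT, against 308, 318 and 328 in untreated cells (-0.81 ± 0.04). In both genes all RT values lay below all untreated values. Nucleoporins were lower in 26 of 31 cases (median -0.56). SEH1L, of the Y complex, stood at 24.7, 24.97 and 25.9 scaled TPM after RT, against 53.6, 58.6 and 60.7 in untreated cells (-1.17 ± 0.05), and NUP54, of the central channel, at 21.98, 23.1 and 25.4 scaled TPM after RT, against 41.1, 43.3 and 45.5 in untreated cells (-0.86 ± 0.05), while RANBP2 and AHCTF1 were not called (0.07 and -0.09, adjusted p = 0.4 and 0.28, limma; AHCTF1 called at -0.15 without IL1RAP-KO RT replicate 2). RNA polymerase II subunits were lower in 8 of 12 cases (median -0.41), but POLR2A, the catalytic subunit, stood at 25.1, 28.1 and 34.7 scaled TPM after RT, against 26.7, 29.3 and 34.6 in untreated cells and was not called (-0.03, adjusted p = 0.71, limma). Vesicle coat genes were lower in 15 of 21 cases (median -0.34), and of the cohesin and condensin list 17 of 23 were lower (median -0.67), led by the condensin subunits NCAPG (-3.65) and NCAPH (-3.55), while the cohesin regulator PDS5A was not called (-0.14, adjusted p = 0.074, limma; called at -0.20 without IL1RAP-KO RT replicate 2).

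Nuclear and mitochondrial genes of the respiratory chain moved in opposite directions. Of 77 nuclear-encoded subunits 75 were lower and none higher (limma; 0 also by the unadjusted p; median -0.82), and their summed level was 9381 to 12675 scaled TPM in the 6 RT libraries, against 19354 to 19967 in the 6 untreated libraries. ATP5F1C, the gamma subunit of ATP synthase, stood at 139.7, 143 and 170.0 scaled TPM after RT, against 376, 385 and 402 in untreated cells (-1.36 ± 0.06, adjusted p = 2.4e-09, limma). NDUFA9, of complex I, stood at 54.3, 57.3 and 58.5 scaled TPM after RT, against 101, 115 and 124 in untreated cells (-0.99 ± 0.06). CYC1, cytochrome c1 of complex III, changed by -1.51 ± 0.08. All 13 mRNAs encoded by mitochondrial DNA were higher (median 1.25), with a summed level of 321211 to 696504 scaled TPM in the 6 RT libraries, against 154056 to 185414 in the 6 untreated libraries. MT-ND1, of complex I, stood at 22122, 29853 and 51183 scaled TPM after RT, against 5682, 6366 and 6983 in untreated cells (2.27 ± 0.17), and MT-CYB, of complex III, at 20305, 22228 and 40373 scaled TPM after RT, against 7791, 9049 and 9827 in untreated cells (1.47 ± 0.15). By list medians the direction was opposite in each of the 6 RT libraries, and both kinds of gene serve the same complexes. Without IL1RAP-KO RT replicate 2, which had the highest mitochondrial share, the median of the 13 was 1.07 and all were still called. Mitochondrial ribosomal proteins, encoded in the nucleus, were lower in 71 of 79 cases and higher in 2 (median -0.73), within a narrow -0.76 to -0.63 over the 6 RT libraries. MRPL19 stood at 27.5, 32.02 and 34.7 scaled TPM after RT, against 68.9, 74.7 and 79.6 in untreated cells (-1.21 ± 0.06). VDAC3, a channel of the outer membrane, stood at 93.6, 102 and 103 scaled TPM after RT, against 188, 197 and 203 in untreated cells (-0.97 ± 0.05). Glycolytic genes fell as well, 14 of 17 (median -0.86), among them GAPDH (879, 1236 and 1896 scaled TPM after RT, against 4436, 4519.7 and 4824 in untreated cells, -1.83 ± 0.13) and TPI1 (-1.36 ± 0.06), whereas LDHA, which makes lactate, was not called (-0.16, adjusted p = 0.11, limma; called at -0.22 without WT RT replicate 2).

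**Figure D4:**
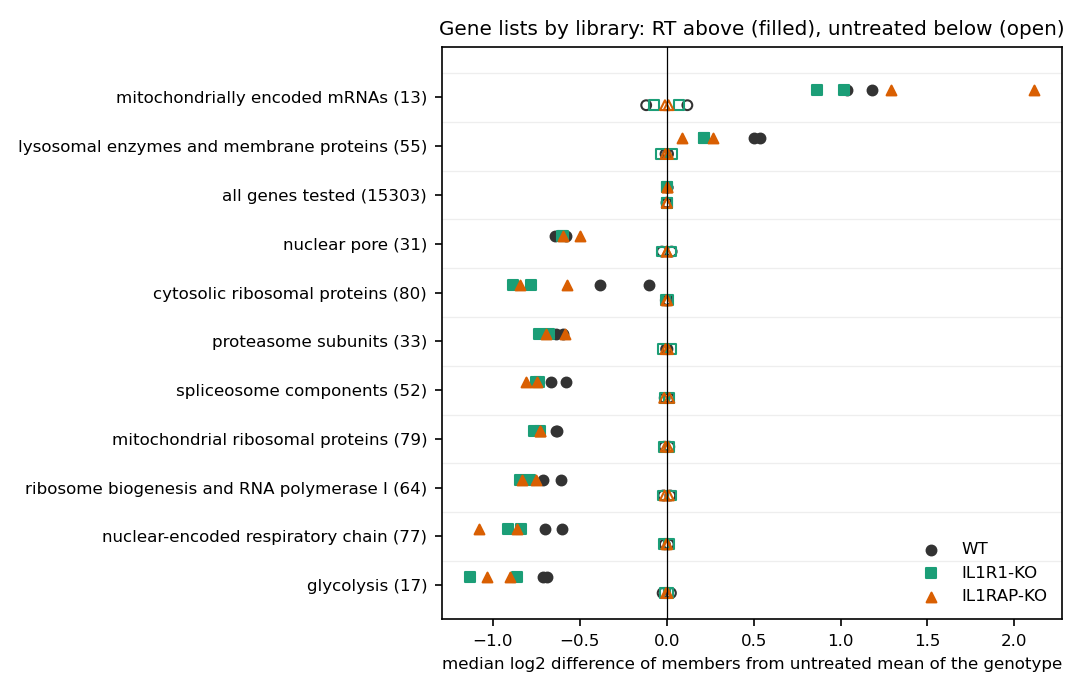
For each gene list (number of genes tested), the median over its members of the log2 difference from the mean of the 2 untreated libraries of the same genotype (x axis), in RT libraries (filled, upper row) and untreated libraries (open, lower row, mirrored around 0 because there are 2 of each genotype). The median proteasome subunit lies between -0.73 and -0.59 in the 6 RT libraries and the median nuclear respiratory subunit between -1.08 and -0.60, while the median mitochondrially encoded mRNA lies between 0.87 and 2.11; with libraries scaled to nuclear protein-coding genes these list medians keep their sign.

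The falls of these genes were read beside those of all protein-coding genes grouped by level, the members of the lists included. Among 1739 protein-coding genes with a mean over 6 log2 units, 64.3% were lower and 15.6% higher (median -0.40). Among 4438 at 4 to 6 log2 units 44.2% were lower and 26.1% higher, whereas among 727 under 1 log2 unit 12.5% were lower and 47.5% higher (median 0.42). The share of members lower was above 64.3% in the lists of the proteasome, CCT and prefoldin, initiation factors, ribosomal proteins, the respiratory chain, spliceosome, nuclear pore, ribosome biogenesis and glycolysis. Not all of these members have a mean over 6 log2 units. Transcript length moved with the change as well: in the shortest of 5 equal length groups (180 to 1770 bases) 48.9% of genes were lower and 23.1% higher, and in the longest (5765 to 43816 bases) 31% and 34.7%. Across 12264 genes Spearman's rank correlation was 0.131 between length and change and -0.294 between level and change (12278 genes), as descriptions over genes that are not independent. The part of level, length and the rise in mitochondrial RNA in the shallow falls was not tested. With libraries scaled to nuclear protein-coding genes 19 of 33 proteasome subunits were still lower, as were 62 of 77 nuclear respiratory genes, 51 of 79 mitochondrial and 44 of 80 cytosolic ribosomal protein genes, 39 of 52 spliceosome components, 48 of 64 ribosome biogenesis genes and 11 of 17 glycolytic genes. Of 21 coat genes 3 were then lower and 3 higher.

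**Figure D5:**
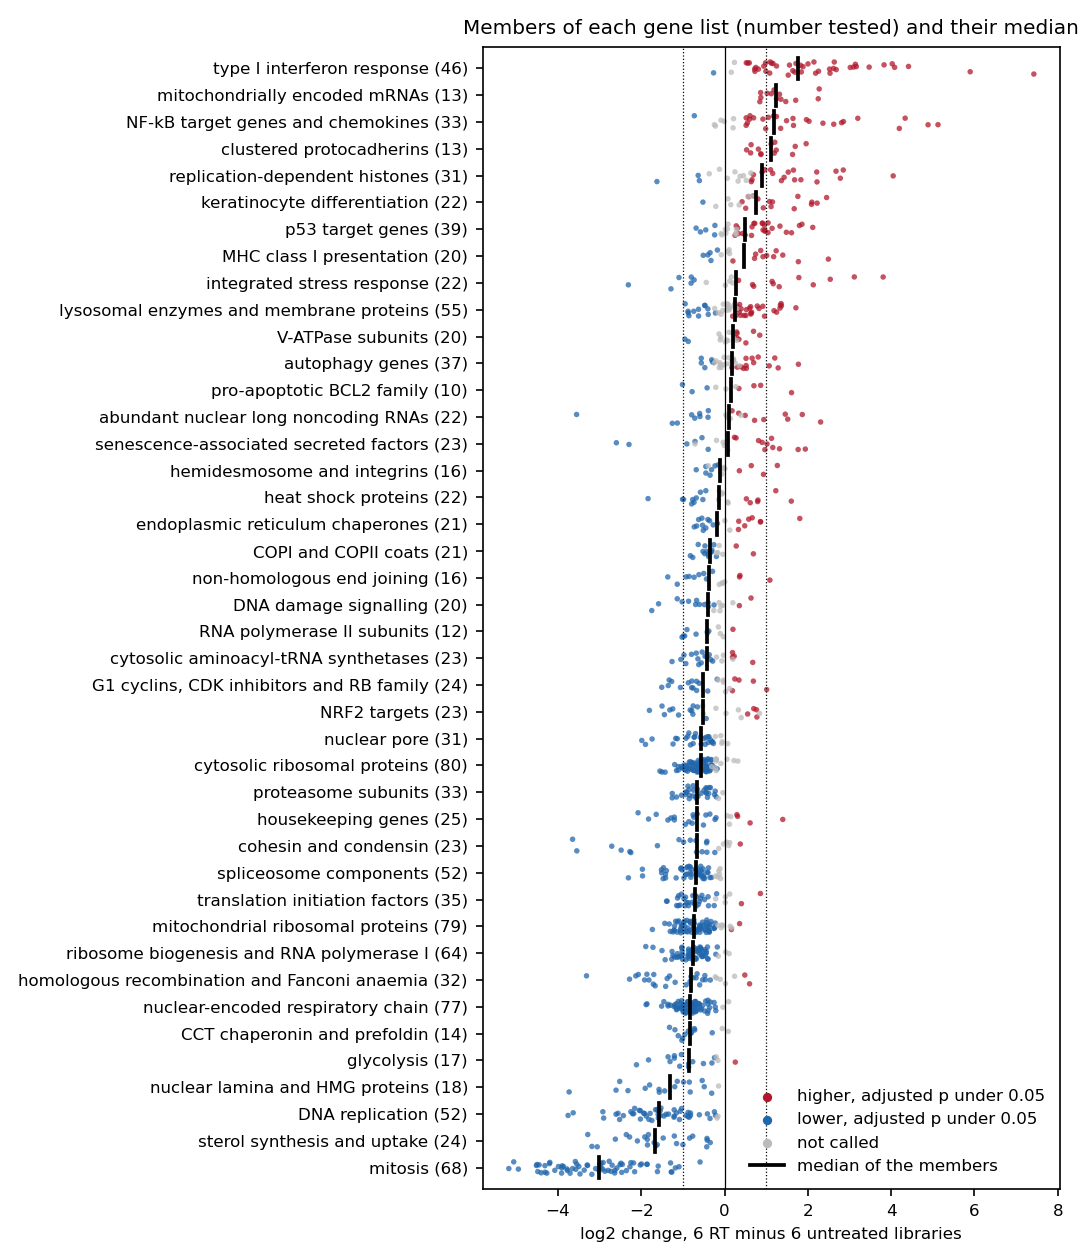
Each point is a gene of a list (number tested in brackets), placed by its log2 change (6 RT minus 6 untreated libraries; dotted lines at 2-fold) and coloured by its call, and black bars are list medians. Mitosis (-3.01), sterol (-1.67) and replication (-1.57) genes lie far to the left, interferon genes (1.77) far to the right, and lists of large complexes sit between -1 and 0 with few members to the right of 0; in the alternative scaling to nuclear protein-coding genes the medians of endoplasmic reticulum chaperones, heat shock proteins and hemidesmosome genes turn positive, and with TPM as deposited those of autophagy genes, long noncoding RNAs, secreted factors and pro-apoptotic genes turn negative.

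Lists of lysosomes and autophagy held more genes that were higher than lower, at shares to be read beside the 31.9% higher and 32.5% lower of all genes tested. Lysosomal genes were higher in 29 of 55 cases and lower in 12 (median 0.26, and 0.15 without the WT libraries; 19 higher with TPM as deposited). PSAP, the precursor of the saposins, stood at 611, 653 and 735 scaled TPM after RT, against 273, 289 and 306 in untreated cells (1.19 ± 0.06), and CTSF, a cathepsin, at 29.2, 36.7 and 41.2 scaled TPM after RT, against 9.67, 10.4 and 11.6 in untreated cells (1.71 ± 0.09), while another cathepsin, CTSZ, fell (-0.74 ± 0.06). CD63 and NPC2 were not called (0.10 and -0.09, adjusted p = 0.36 and 0.46, limma). Of 20 subunits of the proton pump V-ATPase 8 were higher and 2 lower (median 0.20; 0.13 without WT RT replicate 1; 3 higher and 3 lower with TPM as deposited), a share higher near that of all genes, with ATP6V0E1 at 317, 349 and 394 scaled TPM after RT, against 194, 219 and 230.2 in untreated cells (0.69 ± 0.06). Of 37 autophagy genes 15 were higher and 6 lower (median 0.18, and -0.02 with TPM as deposited), again near that of all genes. MAP1LC3B, the autophagosome protein LC3B, stood at 106, 129 and 139 scaled TPM after RT, against 49.9, 54.2 and 56.7 in untreated cells (1.21 ± 0.06), and NBR1, a cargo receptor, at 86.3, 90.5 and 96.6 scaled TPM after RT, against 59.9, 62.2 and 67.5 in untreated cells (0.52 ± 0.05), whereas SQSTM1, another receptor, was not called (0.17, adjusted p = 0.29, limma; called at 0.32 without IL1R1-KO replicate 1). RNF13, a ubiquitin ligase of endosomes and lysosomes, stood at 47.1, 59.4 and 64.1 scaled TPM after RT, against 27.2, 28.9 and 31.1 in untreated cells (0.96 ± 0.06).

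Lists of the cell surface, of differentiation and of secreted proteins differed in direction, beside 31.9% higher and 32.5% lower of all genes tested. Of 37 listed clustered protocadherins, neighbouring genes on chromosome 5 that encode adhesion molecules, 13 were tested and all 13 were higher (median 1.12). A gene low in untreated cells passes the filter of 1 TPM in 2 libraries only if its RT values are high. The count of 13 of 13 may therefore rest in part on the filter. The same holds for the keratinocyte differentiation genes below, of which 38 were listed and 22 tested. PCDHGC3 stood at 17.2, 19.6 and 22.9 scaled TPM after RT, against 7.25, 8.14 and 9.06 in untreated cells (1.19 ± 0.06), but its last exons are shared with other members of its cluster, so these counts are not independent. Keratinocyte differentiation genes were higher in 15 of 22 cases and lower in 1 (median 0.75, and 1.17 without the IL1RAP-KO libraries), with the stress keratin KRT16 at 57.1, 122 and 149 scaled TPM after RT, against 18.6, 20.4 and 42.5 in untreated cells (2.09 ± 0.19) and the cornified envelope gene SPRR2D at 1.76 ± 0.16, while KRT6A and TGM1 were not called (0.08 and -0.21, adjusted p = 0.65 and 0.52, limma). Of 16 hemidesmosome and integrin genes 4 were higher and 7 lower (median -0.11, but 0.21 with libraries scaled to nuclear protein-coding genes and 0.02 with a filter of TPM 5 in 6 libraries). COL17A1, a hemidesmosome collagen, stood at 306, 378 and 514 scaled TPM after RT, against 151, 157 and 167 in untreated cells (1.27 ± 0.09), whereas ITGB4 and ITGB1, integrin chains, were not called (0.01 and -0.03, adjusted p = 0.97 and 0.74, limma). Of 23 secreted factors of senescence 11 were higher and 6 lower (median 0.08, which ran from 0.05 without IL1R1-KO replicate 2 to 0.19 without IL1R1-KO replicate 1, and -0.10 with TPM as deposited). The list's largest falls, named after their values were seen, were ANGPTL4 (-2.60) and IGFBP6 (-2.30). VEGFA, an angiogenic factor, stood at 126, 137 and 157 scaled TPM after RT, against 36.8, 38.9 and 47.00 in untreated cells (1.77 ± 0.08). TIMP1, an inhibitor of matrix metalloproteinases, stood at 558, 614 and 649 scaled TPM after RT, against 299, 311 and 329 in untreated cells (0.97 ± 0.05, or 0.98 in WT, 1.03 in IL1R1-KO-labelled and 0.89 in IL1RAP-KO cells), with the 2 sets of 6 well apart.

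Long noncoding RNAs were more often higher than lower, except at the highest levels. Of 2032 tested, 44.9% were higher and 7.53% lower, with a median of 0.39, beside 30.1% and 38.3% of 12278 protein-coding genes (median -0.05). At a mean of 2 to 4 log2 units the contrast was 53.7% higher and 11.7% lower for 419 long noncoding RNAs and 33.7% and 31.2% for 4047 protein-coding genes. Of the 18 long noncoding RNAs with a mean over 6 log2 units 38.9% were higher and 55.6% lower (median -0.49). NEAT1, the scaffold of paraspeckles and a known p53 target, stood at 284, 334 and 419.6 scaled TPM after RT, against 62.7, 66.5 and 75.4 in untreated cells (2.31 ± 0.07, adjusted p = 3.6e-10, limma), and MIR22HG at 30.8, 40.5 and 56.98 scaled TPM after RT, against 12.3, 13.5 and 14.4 in untreated cells (1.52 ± 0.10). H19, an imprinted RNA, fell to 0.691, 2.13 and 2.60 scaled TPM after RT, against 24.4, 29.9 and 41.2 in untreated cells (-3.55 ± 0.18), and DANCR changed by -1.13 ± 0.07. Of the 22 well-known RNAs of the list, 9 were higher and 9 lower (median 0.10, and -0.07 with TPM as deposited).

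Stress pathways were divided, as were all genes tested, of which 31.9% were higher and 32.5% lower. Of 22 genes of the integrated stress response 11 were higher, among them ATF3 (3.81 ± 0.28), DDIT3 (3.12 ± 0.27) and PPP1R15A (1.78 ± 0.13), and 6 were lower, led by the serine synthesis enzyme PHGDH (-2.31 ± 0.11), while SLC7A5 and SLC3A2, the chains of an amino acid transporter, were not called (-0.44 and 0.02, adjusted p = 0.083 and 0.93, limma; SLC7A5 called at -0.60 without IL1R1-KO replicate 1; SLC7A5 called at -0.55 without IL1R1-KO RT replicate 2). NRF2 targets were lower in 12 of 23 cases (median -0.53) and higher in 4 (8 without IL1R1-KO replicate 1), among them TKT, of the pentose phosphate pathway, which stood at 187, 228 and 279 scaled TPM after RT, against 721, 775 and 1048 in untreated cells (-1.81 ± 0.11), malic enzyme ME1 (-1.44 ± 0.10) and glutathione reductase GSR (-0.65 ± 0.06). Endoplasmic reticulum chaperones held 8 higher and 11 lower genes of 21 (median -0.17, but 0.16 under scaling by nuclear protein-coding genes), with DNAJB9, a cochaperone of BiP, at 37.3, 40.6 and 51.3 scaled TPM after RT, against 10.5, 10.9 and 13.5 in untreated cells (1.81 ± 0.08) and MANF at -0.67 ± 0.07. Heat shock genes held 6 higher and 10 lower of 22 (median -0.14, but 0.18 under that scaling), a share higher near that of all genes. HSPA8, the constitutive HSP70, stood at 506, 640.2 and 949 scaled TPM after RT, against 2381, 2416 and 2514 in untreated cells (-1.84 ± 0.11), and HSP90AB1, an HSP90, at 442, 494 and 624 scaled TPM after RT, against 989, 1030.4 and 1059.9 in untreated cells (-0.99 ± 0.07), whereas the cochaperone DNAJB4 rose (1.60 ± 0.11) and DNAJB1 rose by less (0.62 ± 0.05).

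The 30 genes chosen for the smallest adjusted p among changes under 2-fold, 15 in each direction at a mean of at least 10 scaled TPM, included several described above. On the lower side KCTD3 stood at 50.1, 52.7 and 57.4 scaled TPM after RT, against 100.1, 106 and 112 in untreated cells (-0.99 ± 0.04, or -1.03 in WT, -0.97 in IL1R1-KO-labelled and -0.96 in IL1RAP-KO cells; adjusted p = 3.8e-09, limma). PRMT3, an arginine methyltransferase of a ribosomal protein, stood at 21.5, 24.1 and 26.2 scaled TPM after RT, against 45.4, 48.4 and 53.4 in untreated cells (-0.99 ± 0.05), and USP10, a deubiquitinase of p53 among others, at 32.8, 34.3 and 34.9 scaled TPM after RT, against 57.6, 59.97 and 64.7 in untreated cells (-0.80 ± 0.05). OAT, a mitochondrial enzyme of ornithine metabolism, stood at 69.6, 79.9 and 83.9 scaled TPM after RT, against 151, 157 and 162 in untreated cells (-0.996 ± 0.06). Every untreated value lay above every RT value in these genes. The nucleolar protein NOL7 (-0.94 ± 0.05) and the kinase MAP3K21 (-0.94 ± 0.05) were also among the 15. On the higher side ARHGAP5, a GTPase-activating protein, stood at 91.6, 102 and 123 scaled TPM after RT, against 48.2, 52.5 and 56.9 in untreated cells (0.98 ± 0.06), PIK3R3, a regulatory subunit of phosphoinositide 3-kinase, at 29.8, 35.2 and 38.7 scaled TPM after RT, against 16.7, 17.7 and 20.4 in untreated cells (0.89 ± 0.06) and ZBTB4, a repressor that binds methylated DNA, at 20.8, 25.8 and 26.7 scaled TPM after RT, against 11.6, 12.5 and 13.2 in untreated cells (0.92 ± 0.06). Each of these also separated the sets. The rest of the 15 were PCMTD1 (0.95), MFSD11 (0.99), MFSD6 (0.94), C4orf3 (0.84), TMBIM1 (0.68) and the noncoding or unnamed transcripts AL390728.4 (0.91) and AC025423.2 (0.94). These genes were picked by their p, so their separation is a description and no further test was made. None of the 30 lost its call, in either direction, when any 1 library or any 1 genotype was left out, which their choice by p made likely.

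Genes used as internal standards in expression assays were not stable. Of 25 housekeeping genes 18 were lower and 4 higher (median -0.66). This share lower is near the 64.3% of all protein-coding genes with a mean over 6 log2 units. ACTB, beta-actin, stood at 348, 441 and 554 scaled TPM after RT, against 1549.7, 1882 and 2095 in untreated cells (-2.08 ± 0.09), and GAPDH and B2M changed as given above. RAB7A stood at 132, 152 and 169 scaled TPM after RT, against 129, 134 and 151 in untreated cells and REEP5 at 72.6, 75.4 and 85.4 scaled TPM after RT, against 68.4, 73.2 and 78.7 in untreated cells. These 2 were not called (0.15 and 0.07, adjusted p = 0.083 and 0.31, limma; RAB7A called at 0.20 without IL1R1-KO replicate 1; RAB7A called at 0.19 without IL1R1-KO RT replicate 1), and their RT and untreated values overlapped.

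For some genes the mean over genotypes was no common value. NF-κB targets and chemokines were higher in 26 of 33 cases (median 1.18, and 0.67 without the WT libraries), beside 31.9% of all genes tested. However, 20 of 33 passed the interaction test, beside 1.64% of all genes tested. The list held 37 genes, and the limit of the filter given for protocadherins applies here as well. LCN2, an iron-binding antimicrobial protein, stood at 20.00, 35.6 and 522 scaled TPM after RT, against 0.333, 1.43 and 2.74 in untreated cells, with changes of 7.50 in WT, 3.56 in IL1R1-KO-labelled and 3.603 in IL1RAP-KO cells (interaction adjusted p = 0.0027, limma). LTF, lactoferrin, stood at 2.61, 8.98 and 1036 scaled TPM after RT, against 0.0558, 0.247 and 3.31 in untreated cells, with changes of 7.83 in WT, 1.70 in IL1R1-KO-labelled and 3.06 in IL1RAP-KO cells. Its RT and untreated ranges overlapped. CXCL1, a neutrophil chemokine, stood at 14.02, 43.8 and 1060.2 scaled TPM after RT, against 2.69, 6.56 and 31.8 in untreated cells, with changes of 4.98 in WT, 2.07 in IL1R1-KO-labelled and 2.55 in IL1RAP-KO cells, also with overlap. In these genes both WT RT libraries were the highest of the 6. S100A9, a subunit of calprotectin, was called for the shared effect (1.25 ± 0.43) although its changes were 3.24 in WT, -0.03 in IL1R1-KO-labelled and 0.52 in IL1RAP-KO cells, and was not called without WT replicate 1 (0.98), WT replicate 2 (1.01), WT RT replicate 1 (0.97) or WT RT replicate 2 (1.01). TRIB3, a stress-induced pseudokinase, had changes of -0.29 in WT, 1.39 in IL1R1-KO-labelled and 0.92 in IL1RAP-KO cells. IL1R1 was not called (-0.15 ± 0.13, adjusted p = 0.32, limma), and the change of IL1RAP of -0.56 ± 0.16 (adjusted p = 0.01, limma) was made up of -1.09 in WT, -0.47 in IL1R1-KO-labelled and -0.11 in IL1RAP-KO cells, where the gene is targeted.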

How the data were processed

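RNA was sequenced from 12 MCF10A libraries, 2 biological replicates in each of 6 groups, as stranded, ribosome-depleted total RNA in 75-base read pairs. The authors deposited TPM rounded to 2 decimals for 60675 genes on GRCh38, and their processing notes name cutadapt 1.15, STAR 2.5.3a, HTSeq and DESeq2. TPM keep no depth, so precision rests on the spread between libraries alone. The single-library tables equalled the columns of the joint table, and 0 columns were left unmapped.

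Genes with at least 1 TPM in at least 2 libraries (15303) were kept. Libraries were scaled by trimmed mean factors (30% of ratios and 5% of levels trimmed), and log2(scaled TPM + 1) was fitted with limma 3.58.1 in R 4.3.3 (variance trend, genotype as a block, RT as the effect). P-values were adjusted by Benjamini-Hochberg over all genes, and a call is an adjusted p under 0.05 at any fold. A moderated F test over 6 group means gave the interaction of RT with genotype. Library shares were compared by exact permutation within genotype (216 arrangements). The method was tested on simulated data. P-values measure the spread between these libraries, and whether the replicates are separate cultures is not detailed further in the sources used here.

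The 48 gene lists (1471 genes) and the comparison were chosen with earlier results of these data known. Named genes were, with no overlap within any genotype and a mean of at least 2 log2 units, the 10 highest and 10 lowest; within every list, no more than 4 members that were called (by adjusted p) and 2 that were not (by mean level); the 15 changes under 2-fold with the smallest adjusted p in each direction at a mean of at least 10 scaled TPM; the 10 largest and the 10 clearest mixed-sign effects that differed between genotypes; and IL1R1 and IL1RAP. Promoters and windows came from RefSeq (GRCh38.p14), and transcript lengths from GENCODE. Other scalings, pseudocounts, filters and fits, and fits without each library or genotype, were tried. Genes with near-identical copies (histones, ribosomal proteins, NPM1, HSPA8, GAPDH, IFITM3, HLA-B, SAA1, SAA2, MT1E) may have shared or lost reads in the authors' counting. Some genes that these rules name are not reported here.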

Additional observations from a re-analysis of the deposited data

Results flagged for a closer look

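In the shares of RNA classes, IL1RAP-KO RT replicate 2 stood apart from the other RT libraries, with mRNA of mitochondrial DNA at 51.8% of TPM and the 50 most abundant genes at 64.5%. IL1R1-KO replicate 2 stood apart from the other untreated libraries in the share of small structural RNA, at 0.479%. Chance flags about 1 in 20 such groups.

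The effect of RT differed between genotypes for 30 of the named genes (limma, adjusted p of the interaction). In a first set the 3 genotypes moved in the same direction by different amounts. Secreted and antimicrobial proteins, cytokines and chemokines had a larger difference in WT than in both KO groups: LCN2 (0.0027), LTF (0.00029), S100A7 (0.0012), CXCL1 (0.00029), PI3 (0.00061), TNFSF15 (0.011), SAA1 (0.012) and SAA2 (0.027). The change of S100A7, psoriasin, was 7.51 in WT, 2.54 in IL1R1-KO-labelled and 2.96 in IL1RAP-KO cells, and that of PI3, the elastase inhibitor elafin, was 5.80, 3.04 and 2.75 in the same order. Stress response genes had a smaller rise in WT, with DDIT3 (0.0053) at 1.96, 4.07 and 3.32 and PPP1R15A (0.012) at 1.21, 2.06 and 2.08. A smaller fall in WT was seen for TOP2A (0.0081), HSPA8 (0.047), RPS26 (0.032), EIF4A1 (0.048) and MT1E (0.002). TOP2A, topoisomerase II alpha, changed by -3.67, -4.96 and -4.93.

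In a second set the signs were mixed. The change was positive in WT and negative in IL1R1-KO-labelled cells for S100A9 (0.00018), RIDA (0.00061), TNIP3 (0.0051), PLA2R1 (0.0081), NFKBIA (0.011), SLC18B1 (0.0081), ACO1 (0.011) and PLAT (0.032). It was negative in WT and positive in IL1R1-KO-labelled cells for ABLIM3 (0.0083), TRIB3 (0.0091), UPP1 (0.012), KRT6A (0.0035), TRIM25 (0.029) and SLC3A2 (0.039). ACO1, the cytosolic aconitase that also binds iron-responsive mRNAs, changed by 0.16 in WT, -1.30 in IL1R1-KO-labelled and -1.08 in IL1RAP-KO cells.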

How the results depend on the processing

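Leaving out single libraries gave 4527 to 4835 genes higher and 4749 to 5113 lower, 1009 to 1073 and 1033 to 1145 of them over 2-fold and 3504 to 3809 and 3692 to 4061 under 2-fold. With TPM as deposited 1633 genes were lower over 2-fold and 2507 higher under 2-fold. With libraries scaled to nuclear protein-coding genes 2815 were lower in all, 583 of them over 2-fold and 2232 under 2-fold, and 1838 were higher over 2-fold. A pseudocount of 0.1 gave 2009 genes higher over 2-fold, and a filter of TPM 5 in 6 libraries, which tests fewer genes, gave 605. Under the nuclear protein-coding scaling, whose construction moved all changes up by 0.27, genes that were not called were called higher: PSME2 (0.24), TNIP1 (0.31), RAD50 (0.22), RB1 (0.29), ITGB1 (0.30), NPC2 (0.24), CALCOCO2 (0.31), MRPL33 (0.25), MRPL34 (0.28), NDUFV3 (0.28), PSMC5 (0.28), PFDN2 (0.27), NARS1 (0.30), SRSF5 (0.23), SRSF11 (0.21), AHCTF1 (0.23), POLR2A (0.29), SEC31A (0.28) and LDHA (0.17), and the median of endoplasmic reticulum chaperones was 0.16. Over the 306 named genes and 25 other settings, where a gene was tested, 7333 comparisons kept direction and call, 93 lost the call, 189 gained one and 19 turned round, those listed above. Samples with the same replicate number showed no strong common variation over all genes (correlations of deviations -0.06 to 0.10, median 0.01, over 15 pairs of groups). With 2 libraries in a group, these correlations cannot decide whether the numbers pair libraries. With the replicate block 4655 genes were higher and 4802 lower, 1018 and 1073 of them over 2-fold and 3637 and 3729 under 2-fold. Depth is unknown, and TPM measures shares of RNA, so a change in total RNA per cell was not tested.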
